A study of Mus musculus with 4 samples.

Results

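The miR-17-92 cluster is a group of microRNAs (miRNAs, short RNAs that repress messenger RNAs) cut from 1 primary transcript. It was read here in the developing mouse molar through 9 entries of an Agilent miRNA array, chosen by name: mmu-miR-17, mmu-miR-17*, mmu-miR-18a, mmu-miR-18a*, mmu-miR-19a, mmu-miR-19b, mmu-miR-20a, mmu-miR-20a* and mmu-miR-92a. They are 9 of 696 miRNAs on the array. The 6 names without a star are called first arms here. The 3 starred names are minor arms, the strand of the hairpin that usually accumulates less. Lower molar tooth germs of untreated ICR embryos, an outbred mouse stock, gave total RNA at 4 ages, embryonic days 11 and 12 (E11 and E12), 14 (E14) and 16 (E16). There is 1 array per stage, so no difference between stages has a spread between samples or a p-value. The sources used here do not say how many embryos an array holds.

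The cluster is transcribed from the Mir17hg locus, is activated by Myc and E2F transcription factors, and is known for promoting proliferation and survival in embryonic and tumour cells. A miRNA finds its targets mainly through its seed, bases 2 to 8, and the cluster holds several seeds. miR-17 and miR-20a are known to repress the cell cycle inhibitor Cdkn1a and the TGF-beta receptor Tgfbr2, and miR-18a the matrix protein Ctgf. miR-92a, together with other members, represses the pro-apoptotic Bcl2l11, and miR-19a and miR-19b are known as the main oncogenic part of the cluster in lymphoma. The molar over these days goes from a placode-like thickening to bud, cap and then bell stage, while epithelium and mesenchyme multiply and begin to differentiate.

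The 6 hairpins lie side by side on the plus strand of chromosome 14, in the order Mir17, Mir18, Mir19a, Mir20a, Mir19b-1 and Mir92-1. Together they span 836 bases at chr14:115043671-115044506 (RefSeq, build GRCm38.p6), with 35 to 96 bases between neighbours. The RefSeq model of the non-coding host gene Mir17hg overlaps 2 of the 6, Mir19b-1 and Mir92-1. All 9 members were matched to a RefSeq mature sequence by gene and arm; the probe sequences were not used here. The mature sequences are shown because the groups by seed, and the near identity of some members, set what the array can tell apart. The seed is in capitals, and the sequences run 5′ to 3′.
miR-17: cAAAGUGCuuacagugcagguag
miR-20a: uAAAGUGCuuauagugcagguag
miR-18a: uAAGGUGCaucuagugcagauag
miR-19a: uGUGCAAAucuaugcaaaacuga
miR-19b: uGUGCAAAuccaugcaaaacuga
miR-92a: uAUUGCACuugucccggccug
miR-17*: aCUGCAGUgagggcacuuguag
miR-18a*: aCUGCCCUaagugcuccuucug
miR-20a*: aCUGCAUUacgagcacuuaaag

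The first arms fall into 4 seeds: AAAGUGC in miR-17 and miR-20a, AAGGUGC in miR-18a, GUGCAAA in miR-19a and miR-19b, and AUUGCAC in miR-92a. Each of the 3 minor arms has a seed of its own among the members. miR-19a and miR-19b differ at 1 of 23 positions (U11C, counted from the 5′ end of miR-19a), and miR-17 and miR-20a at 2 of 23 (C1U and C12U). Hybridisation of one to the other's probe was not tested. miR-19b and miR-92a are each encoded at 2 loci with the same mature sequence. The second copies are Mir19b-2 and Mir92-2 of the miR-106a-363 cluster on chromosome X, so these 2 entries cannot be assigned to chromosome 14 alone.

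Of the 9 members, 8 were detected on all 4 arrays, and miR-18a* on 2. Over the whole array, 209 to 250 miRNAs were detected per stage and 197 on all 4 arrays. Signals are given first as deposited, not scaled between arrays, each with the measurement error stated for that array. That error holds nothing of the variation between embryos. Probes differ in affinity, so no member's signal is ranked against another's.

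In the miR-17 seed group, deposited signals stayed within a narrow range. miR-20a had 1129 ± 85.4 at E11, 1297 ± 97.6 at E12, 1114 ± 83.8 at E14 and 1354 ± 101 at E16. Its highest and lowest signals were 1.21-fold apart. miR-17 had 68.1 ± 7.48, 52.6 ± 6.94, 54.7 ± 6.52 and 70.9 ± 8.26, a 1.35-fold range with the 2 low values at E12 and E14. miR-18a, which differs from miR-20a at 4 of 23 positions, had 363 ± 26.7, 378 ± 28.2, 309.9 ± 23.0 and 372 ± 27.7. For miR-18a the E14 signal was the lowest and the other 3 lay within 1 error of each other.

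The miR-19 pair moved more. miR-19a had 487 ± 35.0 at E11, 597 ± 43.0 at E12, 296 ± 21.7 at E14 and 569.6 ± 41.0 at E16. The E14 signal was 2.02-fold below the E12 signal, the widest range among the 8 members detected throughout. miR-19b had 1886 ± 139.1, 2377 ± 177, 1679 ± 124 and 2578 ± 191, also lowest at E14, with a range of 1.54-fold.

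miR-92a went the other way. Its deposited signals were 1803 ± 140.4 at E11, 1443 ± 113 at E12, 1339 ± 103 at E14 and 1225 ± 94.9 at E16. It was the single member lower at each step, as were 8 of the 197 miRNAs detected throughout (4.06%). Each of the last 2 steps was smaller than the combined error. On the main scaling described below, miR-17*, miR-18a and miR-20a were lower at each step as well, with last steps within 1 error.

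Among the minor arms, miR-17* had 55.9 ± 6.44, 60.9 ± 7.89, 74.2 ± 7.48 and 93.0 ± 9.05. It was the single member higher at each step, as were 59 of the 197 (29.9%). On the main scaling described below, miR-17* was instead lower at each step, by -0.54 ± 0.25, -0.13 ± 0.24 and -0.030 ± 0.20 on the log2 scale. miR-20a* was dim, with 16.6 ± 2.69, 10.3 ± 2.48, 14.5 ± 2.71 and 19.2 ± 3.24, lowest at E12. miR-18a* had 10.3 ± 1.99 at E11 and 7.45 ± 2.38 at E12 and was not detected at E14 or E16.

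**Figure D1:**
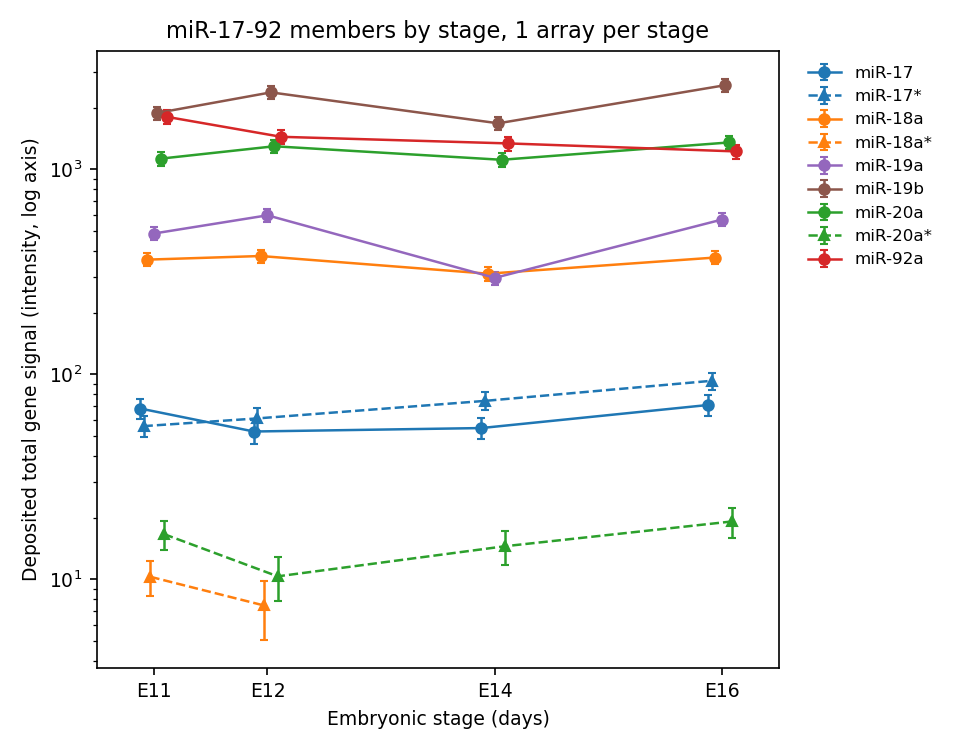
Deposited total gene signal of the 9 members (log axis, intensity) at each embryonic stage; points are single arrays, bars the stated measurement error, and dashed lines with triangles minor arms. miR-19a is lowest at E14 (296), miR-92a is lower at each stage from 1803 to 1225, and miR-18a* has no points at E14 and E16, where it was not detected.

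Over the 4 stages, the median ratio of highest to lowest deposited signal was 1.504-fold for the 8 members and 2.68-fold for the 197 miRNAs detected throughout. The summed signal of the members was 5819, 6224, 4882 and 6281 at E11, E12, E14 and E16. As a share of the summed signal of all detected miRNAs it was 4.23%, 3.78%, 2.22% and 3.11%. This share weights bright probes and was lowest at E14, where the sum over all detected miRNAs was highest.

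Whether the members are called lower later in development therefore turns on how the arrays are brought to 1 scale. The main scaling divides each array by the 75th percentile of its signals over the 197 shared miRNAs. That percentile was 249.99 at E11, 398 at E12, 528 at E14 and 676 at E16, 1.44 higher at E16 on the log2 scale. Of 6 control features detected on every array, 5 differed by 1.04-fold to 1.18-fold between their highest and lowest arrays. The sixth, hur_6, differed by 2.70-fold and was highest at E14. The sources used here do not say what these control features measure, and whether they track the amount of miRNA was not tested.

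The comparison of E16 with E11 spans the series. Under the main scaling, 8 of 8 members detected at both stages were lower at E16, as was the median of all 205 miRNAs. The share of all miRNAs below 0 was not taken. Of the members, 6 of 8 were at least 2-fold lower. Over all 205 miRNAs detected at both, 37.6% were at least 2-fold lower. None of the members was at least 2-fold higher, against 13.7% of all miRNAs. The members' median log2 difference was -1.22, beside -0.74 for all 205, and 7 of the 8 lay below the median of all. Differences here are E16 minus E11 on the scaled log2 scale, with the errors of both arrays combined.

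miR-92a had the lowest value of the members at -1.99 ± 0.16, or 3.98-fold lower. Next came miR-18a at -1.40 ± 0.15 and miR-17 at -1.38 ± 0.23, then miR-20a* at -1.23 ± 0.34, miR-19a at -1.21 ± 0.15 and miR-20a at -1.17 ± 0.15. Among these 5, neighbours in the order did not differ beyond their combined errors, while miR-92a stood 0.59 ± 0.22 below miR-18a. miR-19b, at -0.98 ± 0.15, was just short of 2-fold, and miR-17*, at -0.70 ± 0.22, was furthest from it. miR-18a*, undetected at E16, has no difference. Its E11 signal was 4.27-fold above the lowest detected signal of any miRNA at E16 under the main scaling, and 1.58-fold on the deposited signals. Detection is flagged per entry and the E11 error is not included, so neither value is a strict lower bound on its change.

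On the deposited signals the same comparison read differently. Of the 8 members 0 were at least 2-fold lower and 0 at least 2-fold higher, while 4.39% of all miRNAs were lower and 44.9% higher by that rule. 7 of the 8 members were above 0, with miR-92a at -0.56 ± 0.16 the exception, and their median was 0.22 beside 0.69 for all. The share of all miRNAs above 0 was not taken, so that count has no share to be read against. Scaling by the control features, an alternative chosen after the data were seen, gave 0 of 8 at least 2-fold lower (7.32% of all) and a members' median of -0.015 beside 0.46. Scaling by the median of the shared miRNAs left 1 of 8, miR-92a (17.1% of all). Quantile normalization and the authors' deposited table left 4 of 8 each (31.2% of all in both), and the percentile over all probes 7 of 8 (38% of all). A factor per array moves the members and the median of all alike, so among these settings only quantile normalization, whose values the authors' table shares, could change a member's position against that median. Under it, as on the main scaling, 7 of the 8 members lay below the median of all. The exception was miR-17*, with 51.0% of the other miRNAs below it on the main scaling.

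**Figure D2:**
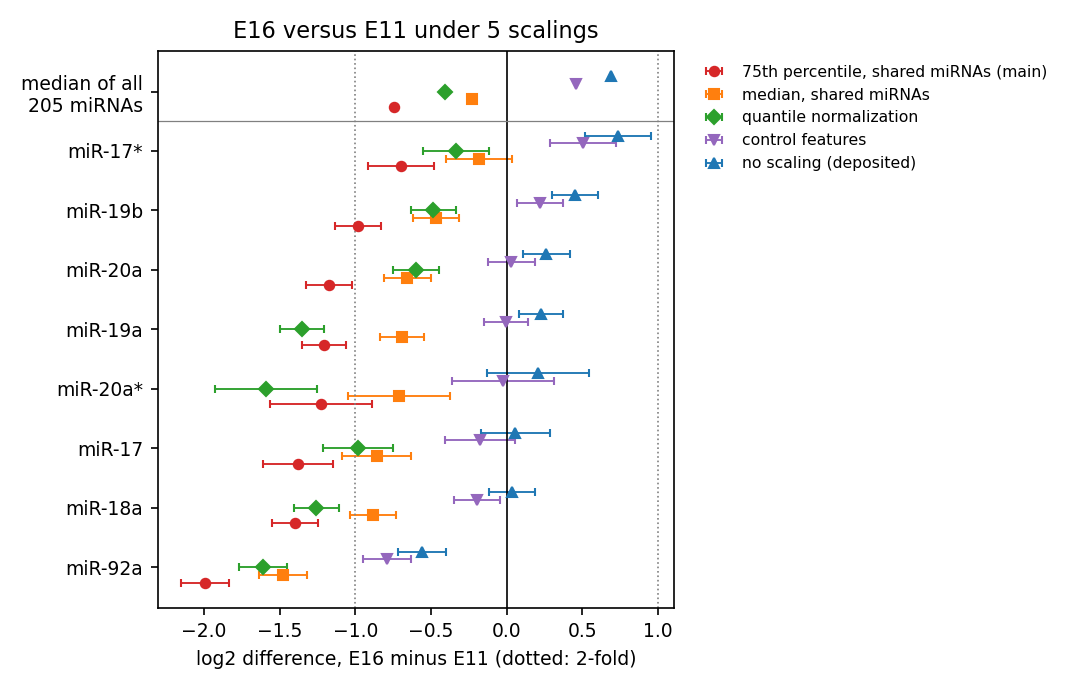
log2 difference E16 minus E11 of the 8 members detected at both stages, and the median of all 205 miRNAs in the top row, under 5 scalings; bars are combined measurement errors and dotted lines mark 2-fold. Members shift with the scaling together with the median of all, from -1.22 (members) beside -0.74 (all) on the main scaling to 0.22 beside 0.69 without scaling. miR-92a is the lowest member in each, but a factor per array cannot change the members' order. Under quantile normalization, which can, miR-92a (-1.61) and miR-20a* (-1.59) were nearly equal.

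The first step, E11 to E12, held the largest shift of the members against the other miRNAs of the 3 steps under the main scaling. All 9 members were detected at both stages, and 3 of 9 were at least 2-fold lower at E12, against 8.46% of all 201 miRNAs. None was at least 2-fold higher, against 9.45%. The members' median was -0.61 beside -0.20 for all, and all 9 lay below the median of all. The 3 were miR-20a* at -1.35 ± 0.42, miR-18a* at -1.13 ± 0.54 and miR-17 at -1.04 ± 0.25. 2 of these are dim minor arms, whose signals were under 5 times their error at E12. miR-92a, at -0.99 ± 0.16, was just inside 2-fold. The least lowered were miR-19b at -0.34 ± 0.15 and miR-19a at -0.37 ± 0.15. Under quantile normalization 8 of 9 members, all but miR-20a, lay below the median of all. The members' median was then -0.53 beside -0.13 for all. From E12 to E14 that method gave -0.70 beside -0.34, a gap of similar size, so the first step did not stand out under it. On the deposited signals 0 of 9 were at least 2-fold lower, and the lowest was miR-20a* at -0.68. The share of all miRNAs was not taken for this step on those signals.

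From E12 to E14, 1 of 8 members was at least 2-fold lower, against 15.1% of all 212 miRNAs, and 0 were at least 2-fold higher, against 12.7%. The 1 was miR-19a at -1.42 ± 0.15, or 2.68-fold lower, and it was also 2.02-fold lower on the deposited signals. Of the other 211 miRNAs, 3.79% had a lower value. miR-19b followed at -0.91 ± 0.15, and at the upper end miR-17* was at -0.13 ± 0.24 and miR-20a* at 0.078 ± 0.44. The members' median was -0.57 beside -0.40 for all, and 5 of 8 lay below the median of all.

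From E14 to E16, 0 of 8 members passed 2-fold in either direction, against 13.4% of all 231 miRNAs lower and 7.36% higher. The members' median was -0.0057 beside -0.060 for all. miR-19a was the highest at 0.59 ± 0.15 and miR-92a the lowest at -0.49 ± 0.16. The other 6 members lay between -0.094 and 0.26. Under quantile normalization the order changed, with miR-19b highest at 0.75 and miR-18a lowest at -0.36. That method gave 0.26 for miR-19a and -0.14 for miR-92a.

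Because a factor applied to a whole array cancels, the change of one member minus that of another does not depend on such a scaling. Of 28 pairs among the 8 members, 9 (32.1%) changed unequally between E11 and E16 by more than 2 combined errors, against 67.4% of the 20910 pairs of all 205 miRNAs. Of those 9 pairs, 7 hold miR-92a, the member with the lowest difference. Under quantile normalization 14 of the 28 pairs passed, against 69.8% of all pairs. Since miR-92a had the lowest difference, the other 7 members were by construction higher relative to it at E16 than at E11. The values ran from 0.59 ± 0.22 (miR-18a) to 1.29 ± 0.27 (miR-17*). miR-19b gained 1.01 ± 0.22 on miR-92a, or 2.01-fold, and miR-20a 0.82 ± 0.22. Quantile normalization, which bends each array's scale, kept all 7 above 0, from 0.020 for miR-20a* to 1.28 for miR-17*, but only 4 of the 7 stayed beyond 2 errors. The other 3 were miR-18a (0.35), miR-19a (0.26) and miR-20a*. The gain of miR-19b on miR-92a came in the first and last steps, 0.66 ± 0.22 and 0.75 ± 0.22, with -0.39 ± 0.22 between E12 and E14.

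For miR-17 and miR-20a, with the same seed, miR-20a minus miR-17 was 0.20 ± 0.28 between E11 and E16 (0.38 under quantile normalization). It was 0.57 ± 0.29 in the first step and -0.27 ± 0.30 in the second, or 0.92 and -0.79 under quantile normalization. Within the miR-19 pair the value depended on the method. miR-19b minus miR-19a was 0.22 ± 0.21 between E11 and E16 under a factor per array, and 0.87 under quantile normalization. From E12 to E14 it was 0.51 ± 0.21, and from E14 to E16 -0.33 ± 0.21. Quantile normalization gave 0.081 and 0.49 for these steps, so the second turned from a loss to a gain of miR-19b. miR-19a against miR-17 was at -1.07 ± 0.30 from E12 to E14, and at -1.14 under quantile normalization.

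**Figure D3:**
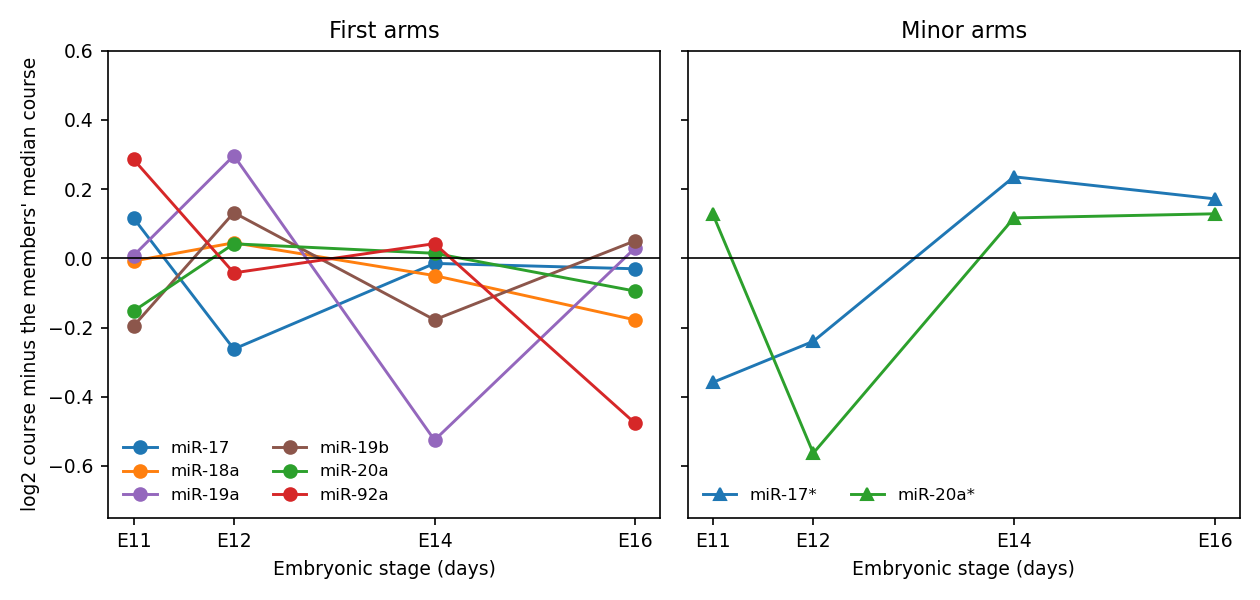
log2 signal of each of the 8 members detected on all arrays, centred on its own mean over the 4 stages, minus the members' median course, by embryonic stage; first arms are on the left and minor arms on the right. miR-92a passes from the highest of the first arms at E11 to the lowest at E16, miR-19a is lowest at E14, and miR-17* stands above the median course at E14 and E16.

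The arms of a precursor are made together, so their unequal change is shown with the 3 hairpins that give 2 members each. Capitals mark both mature arms, the first at the 5′ side. Mir17 lies at chr14:115043671-115043754, Mir18 at chr14:115043851-115043946 and Mir20a at chr14:115044157-115044263, all on the plus strand (RefSeq, GRCm38.p6).
Mir17: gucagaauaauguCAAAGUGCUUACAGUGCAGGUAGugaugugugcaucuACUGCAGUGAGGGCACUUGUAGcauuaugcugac
Mir18: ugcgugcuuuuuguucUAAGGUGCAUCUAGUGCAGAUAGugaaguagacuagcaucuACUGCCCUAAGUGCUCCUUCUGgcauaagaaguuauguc
Mir20a: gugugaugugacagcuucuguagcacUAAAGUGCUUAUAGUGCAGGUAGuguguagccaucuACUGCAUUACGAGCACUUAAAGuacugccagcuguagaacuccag

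miR-17* gained 0.68 ± 0.32 on miR-17 from E11 to E16, or 1.60-fold, of which 0.50 ± 0.35 lay in the first step. Quantile normalization gave 0.65. miR-20a* against miR-20a was at -0.056 ± 0.37 from E11 to E16, but at -0.99 under quantile normalization and in the authors' deposited table. Under a factor per array it was -0.88 ± 0.45 in the first step and 0.71 ± 0.47 in the second. Quantile normalization gave -1.47 and 0.17 for these steps. miR-18a* was detected at E11 and E12 and not later, while miR-18a was detected throughout. The signal of miR-18a* at E12 was 7.45, beside lowest detected signals of 5.69 and 6.51 on the E14 and E16 arrays. Its loss of detection therefore lies close to the detection limit.

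Among all entries, 12 precursors had both a starred and an unstarred arm detected at E11 and E16. Their starred arm changed by a median of -0.56 relative to the other arm, with a range of -2.17 to 1.07, and 3 of 12 were above 0. miR-17* was the second highest of the 12, after miR-214* of the mesenchymal Dnm3os transcript, and miR-20a* the fifth. In the paralog cluster, miR-106b* was at -1.83 ± 0.39 relative to miR-106b. A starred name is an older convention, and these pairs were counted after the data were seen.

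**Figure D4:**
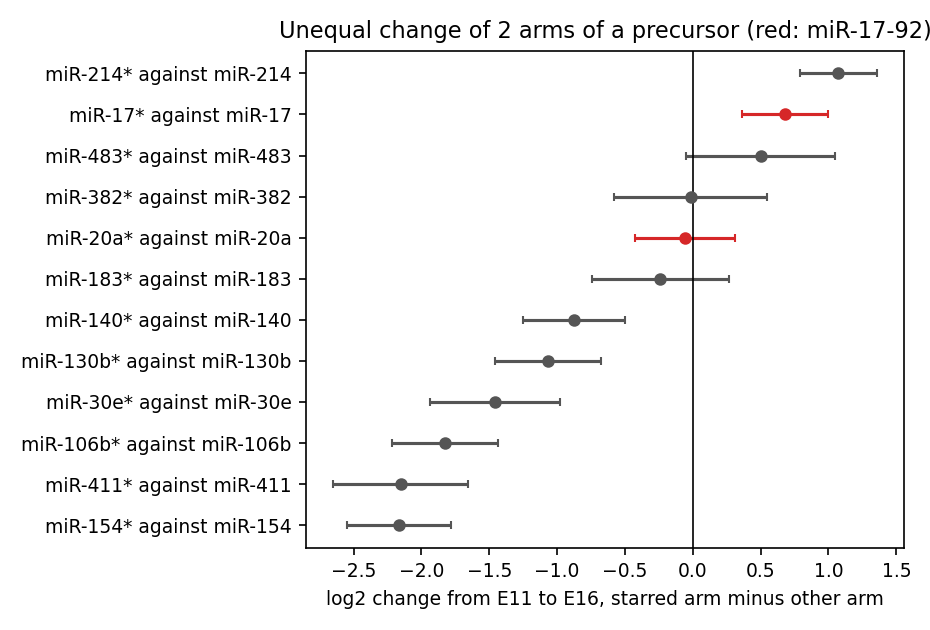
Change from E11 to E16 of the starred arm minus that of the other arm (log2), for the 12 precursors with both arms detected at both stages; bars are combined measurement errors and red points belong to the miR-17-92 cluster. miR-17* against miR-17 (0.68) is second from the top and miR-20a* against miR-20a (-0.056 here, -0.99 under quantile normalization) lies just below 0 on this scaling, while 9 of the 12 lie below 0.

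Relatives of the cluster were read from a list of 22 names. They share its seeds, belong to its paralog clusters, miR-106a-363 and miR-106b-25, or are further starred arms of its own or related hairpins. The arrays had an entry for 14 of them; 5 were detected on all arrays and 9 on none. The 9 include miR-363, miR-18b, miR-92b, miR-32 and, of the cluster itself, the minor arms miR-19a* and miR-92a*. Of the 5 detected, 4 were at least 2-fold lower at E16 than at E11 on the main scaling, against 37.6% of all miRNAs. Their median was -1.13, beside -0.74 for all. On the deposited signals 0 of these 5 were, against 4.39% of all, and 1 was at least 2-fold higher, against 44.9%. Sequences of 3 of them show how near they are to members.
miR-20b: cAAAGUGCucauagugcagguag
miR-106b: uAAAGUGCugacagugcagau
miR-25: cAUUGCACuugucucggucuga

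miR-20b, of the X-linked cluster, differs from miR-20a at 2 of 23 positions (U1C and U10C, counted from the 5′ end of miR-20a). Its deposited signals were 614 ± 45.3, 695 ± 51.0, 604 ± 44.2 and 770.3 ± 56.2. From E11 to E16 it stood at 0.066 ± 0.21 relative to miR-20a (-0.22 under quantile normalization), and no step differed by more than its error. An interval of 1 error each way runs from -0.15 to 0.28.

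miR-106b, with the same seed and 3 differences from miR-20a over 21 positions, did not keep to that course. It had deposited signals of 397 ± 30.3, 624 ± 47.2, 528 ± 40.1 and 869 ± 64.9, and gained 0.87 ± 0.22 on miR-20a from E11 to E16. Its neighbour miR-93 was at 0.042 ± 0.23 relative to miR-20a, but at -0.66 under quantile normalization. miR-25 shares the seed of miR-92a and differs from it at 3 of 21 positions. It had deposited signals of 678 ± 51.1, 736 ± 55.7, 637 ± 48.1 and 705 ± 53.2. On these signals it was, unlike miR-92a, not lower at each step. On the main scaling miR-25 was lower at each step too, at -0.55 ± 0.15, -0.62 ± 0.15 and -0.21 ± 0.15. It gained 0.61 ± 0.22 on miR-92a from E11 to E16 (0.29 under quantile normalization).

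The miRNAs with a course most like the members' median course were found by the root mean square distance of log2 courses over the 4 stages, each centred on its own mean. Of 189 miRNAs detected on all arrays and not members, the closest were miR-20b (0.084), miR-7a (0.10), miR-675-3p (0.10), miR-1198 (0.11) and miR-25 (0.11). The median distance of the 189 was 0.56. miR-7a, miR-675-3p and miR-1198 were dim, with deposited signals of 23.4 to 35.4, 15.5 to 18.9 and 15.9 to 21.3. Among members the distance ran from 0.092 for miR-20a to 0.30 for miR-19a and miR-20a*, and that order does not depend on a factor per array. With 4 stages such a likeness is a description of these arrays.

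The tissue label was read against marker miRNAs. All 5 mesenchymal markers and 6 to 7 of 7 epithelial markers were detected at each stage, and no skeletal muscle marker on any array. The summed deposited signal of the epithelial markers was 1795, 3382, 5363 and 9364 at E11, E12, E14 and E16, and that of the mesenchymal markers 10907, 16952, 11145 and 12745. The erythroid markers summed to 404, 422, 665 and 1230, with 1 of 2 detected before E16. The endothelial markers summed to 239.8, 446, 427 and 791, and 0, 1, 1 and 2 of 3 leukocyte markers were detected. The part of these shifts in the members' differences was not tested. In whole tissue, fewer cells with a miRNA and less of it per cell cannot be told apart.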

How the data were processed

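RNA (100 ng per array) was labelled with Cy3 and hybridised to Agilent miRNA arrays, 1 colour and 1 array per stage, per the labels' protocols. The deposited intensity of an entry is its total gene signal, per the file headers, with an error and a detection flag; undetected entries are written as 0.1. Its software, array design and background correction were not stated in the sources used here. The authors' deposited value table holds linear intensity as well: all 929 detected values matched, to within 0.1%, a quantile normalization of the signals over all features. No centring was found. Over detected values the column medians are 123, 106, 83.7 and 83.0. How the authors made it stays unknown.

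Here 22 control features were left out, log2 signals were taken relative to each array's 75th percentile over the 197 shared miRNAs, and at least 2-fold was used as a rule of size (Python 3.11.15, numpy 2.4.6, pandas 2.3.3). Alternatives were 5 other scalings, a 1.5-fold rule, a filter at 5 times the error and, added later, control features. The code was checked on data with known answers. Named were all members, related miRNAs detected throughout and the 5 nearest courses. The members and lists were chosen with earlier results of these data known. The number of arrays limits the precision. RefSeq sequences and names are of GRCm38.p6.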

Additional observations from a re-analysis of the deposited data

How the results depend on the processing

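No paired analysis was possible because each stage has 1 array. From E11 to E16, the count of members at least 2-fold lower was 6 of 8; it was 1 with median scaling, 0 without scaling and 0 with control features, and 4 to 7 under the other scalings. The members' median, -1.22, was -0.70 with median scaling, -0.015 with control features and 0.22 without scaling. Without scaling, miR-17 (0.058), miR-18a (0.034), miR-19a (0.23), miR-20a (0.26), miR-20a* (0.21), miR-19b (0.45) and miR-17* (0.74) turned positive. With control features miR-20a (0.031), miR-19b (0.22) and miR-17* (0.503) did. From E11 to E12 the count, 3 of 9, was 0 without scaling and with control features, 5 at 1.5-fold and 1 of 7 with the dim filter. For the single steps the share of all miRNAs was taken only under the main scaling with the 2-fold rule. The counts of these steps under other settings therefore have no share to be read against. The median, -0.61, was -0.79 with all probes, 0.059 without scaling and 0.013 with control features. From E12 to E14 the count, 1 of 8, was 2 with quantile normalization and in the authors' table and 4 at 1.5-fold. The median, -0.57, was -0.34 with median scaling, -0.16 without scaling and -0.30 with control features. From E14 to E16 the 1.5-fold rule gave 1 member higher. The median, -0.0057, was 0.15 with all probes, 0.24 with median scaling, 0.18 with quantile normalization and in the authors' table, 0.35 without scaling and 0.30 with control features. Relative to each other from E11 to E16, miR-20a* minus miR-20a moved to -0.99, miR-19b minus miR-19a to 0.87 and miR-18a minus miR-92a to 0.35 with quantile normalization and in the authors' table; the other 5 pairs stayed within their errors. Of the 5 nearest courses, 3 were among the nearest 5 with quantile normalization and 2 by correlation. Of 198 values of single members under other scalings, 59 lay within 1 error of the main value, and 44 changed sign: 17 without scaling, 12 with control features and 15 under other settings. Of these 44, 6 were at least 2-fold lower under the main scaling. Quantile normalization and the authors' table share their values, so these counts hold each such value under both. Dim minor arms, with errors of 16.2% to 32.0% for miR-18a* and miR-20a*, are read with the least precision. A factor per array moves all values of a comparison alike; other causes of these shifts were not tested.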
